A study of Homo sapiens with 4 samples.

Results

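Autotaxin, the phospholipases A2 that feed it and the receptors for its product were followed in HepG2, a human hepatoma cell line, after depletion of the histone demethylase LSD1. The group holds 9 of the 19775 genes read on the arrays: ENPP2 (autotaxin), PLA2G1B, PLA2G2A, PLA2G4A and PLA2G6 (phospholipases A2) and LPAR1, LPAR2, LPAR3 and LPAR6 (receptors of lysophosphatidic acid, LPA). The genes were selected by name and by earlier values of the same comparison of knockdown with control, in which ENPP2 and PLA2G1B stood high, so that comparison is described here without a test. Of the phospholipases, PLA2G1B and PLA2G2A encode secreted enzymes, while PLA2G4A and PLA2G6 encode intracellular ones. They were read by every probe set that the platform annotation gives to that gene alone, 17 of the 54675 on the array.

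The series holds 4 Affymetrix HG-U133_Plus_2 arrays. Control cells (2 arrays, control 1 and control 2) received an siRNA against GL3, and LSD1 was targeted by 1 of 2 siRNAs, called siRNA-1 and siRNA-2, with 1 array for each. All cells grew in medium with 25 mM glucose and 10% serum, were transfected near 50% confluence and were harvested after 4 days. Errors and p-values measure array-to-array spread only. Nothing in the labels describes the control arrays as separate cultures, so the spread between them may be technical. The spread between the knockdown arrays also holds the difference between the siRNAs, which enters the errors and p-values of knockdown against control. Values are log2 RMA values that the authors centred on the median of the 4 arrays, probe set by probe set. Differences between arrays remain, but the levels of different genes cannot be compared, and the middle pair of values in each row is equal and opposite by construction. A rough brightness class (8 or above, 4 to 8, or below 4 on the log2 scale) was derived from the size of the smallest numeric step among the values. Genes with several probe sets are represented by 1 of the highest class, called the representative.

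LPA is a lysophospholipid that acts outside the cell as a growth and migration signal. Autotaxin, a secreted lysophospholipase D, makes it by removing choline from lysophosphatidylcholine, and phospholipases A2 supply lysophospholipids by cutting the sn-2 acyl chain from phospholipids. LPA then binds G protein-coupled receptors: LPAR1, LPAR2 and LPAR3 belong to the EDG family, shared with sphingosine 1-phosphate receptors, and LPAR6 is closer to purinergic P2Y receptors. In liver, autotaxin made by hepatocytes and LPA signalling are studied in fibrosis and hepatocellular carcinoma.

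KDM1A, which encodes LSD1, read 1.23 and 1.17 on the controls, -1.55 under siRNA-1 and -1.17 under siRNA-2, a difference of -2.56 ± 0.16 (SE, n = 2 arrays per group). All 10 hepatocyte marker genes measured, among them ALB, AFP and APOA1, lay in the brightest class. In that class lay 1 of 5 leukocyte, 0 of 5 endothelial and 1 of 6 fibroblast markers, and on each array the median of each of these lists lay between -0.13 and 0.15. Over all genes the control arrays differed from each other by a median of 0.08. The SD of the difference from the control mean was 0.32 under siRNA-1 and 0.51 under siRNA-2. Hybridization spike-ins, added in fixed amounts, differed along the same split of arrays as the knockdown. Their 18 probe sets averaged -0.69 and -0.61 on the controls, 0.61 under siRNA-1 and 0.65 under siRNA-2, a difference of 1.28. The 24 poly-A spike-in probe sets differed by 0.30 (range 0.06 to 0.50). The part of either in the values below was not tested. The median difference over all genes was 0.00.

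ENPP2 lay higher on both knockdown arrays. Its representative, 209392_at, read -0.78 and -0.75 on the controls, 0.75 under siRNA-1 and 0.80 under siRNA-2. The controls lay 0.03 apart and the knockdown arrays 0.06 apart, and the groups did not overlap. Knockdown and control means differed by 1.54 ± 0.10 in log2 units (SE, 2 arrays per group), a 2.91-fold higher level. It was 1.51 against the control mean for siRNA-1, and 1.57 for the other siRNA. The other ENPP2 probe set, 210839_s_at, read -0.53 and -0.71 on the controls, 0.53 under siRNA-1 and 0.75 under siRNA-2. It showed the same separation of the groups with a smaller difference, 1.26 ± 0.14. An array reads RNA from a whole culture, so more transcript per cell and more cells that hold the transcript cannot be told apart.

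PLA2G1B, which encodes the pancreatic-type secreted phospholipase A2, had the largest difference of the 9 genes. Its 1 probe set, 206311_s_at, read -0.86 and -0.89 on the controls, 0.86 under siRNA-1 and 1.08 under siRNA-2. The groups did not overlap, and the gap between the knockdown arrays (0.22) was wider than that between the controls (0.02). The means differed by 1.85 ± 0.12 (SE, 2 arrays per group), or 3.60-fold. Against the control mean it was 1.74 for siRNA-1, and 1.96 for the other siRNA. A probe set with the suffix _s_at can match several transcripts, and no other probe set was at hand for this gene. Of all genes, 0.491% had a difference at or above that of ENPP2 and 0.223% at or above that of PLA2G1B. Both genes were known to stand high in this comparison when the group was chosen, so these shares only describe their place.

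**Figure D1:**
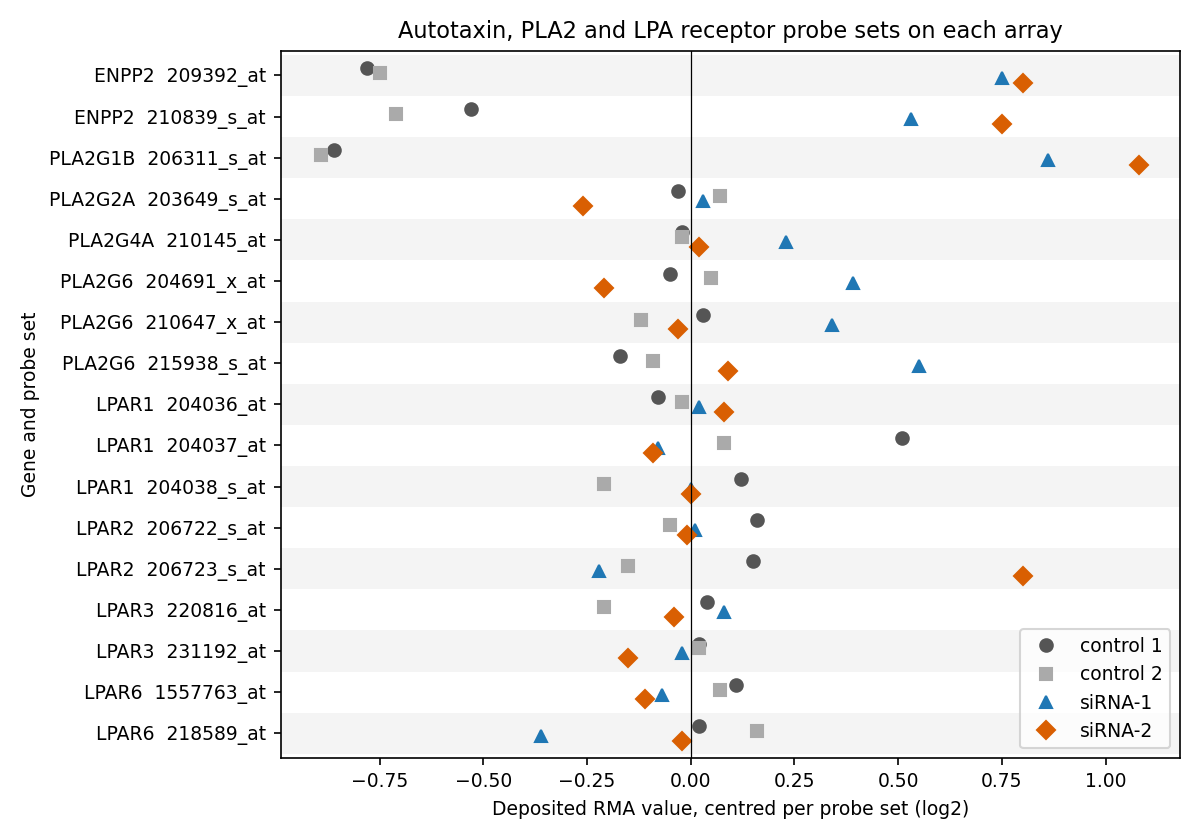
Deposited RMA value centred per probe set (log2, horizontal axis) for the 17 probe sets of the 9 genes (vertical axis), with 1 point per array: circles and squares are the control arrays, triangles siRNA-1 and diamonds siRNA-2. Both ENPP2 probe sets and PLA2G1B have the controls at -0.53 or below and the knockdown arrays at 0.53 or above, while most receptor values lie close to 0, apart from single arrays of LPAR1 (0.51), LPAR2 (0.80) and LPAR6 (-0.36).

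The other secreted enzyme of the group did not share this pattern. PLA2G2A, the inflammatory group IIA phospholipase found in plasma, read -0.03 and 0.07 on the controls, 0.03 under siRNA-1 and -0.26 under siRNA-2. The siRNA-1 array lay between the controls and the siRNA-2 array below them, and the difference was -0.13 ± 0.14. PLA2G2A was thus not separable from the controls at the spread of these arrays.

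The intracellular phospholipases showed small differences with siRNA-1 above siRNA-2. PLA2G4A, the calcium-activated enzyme that releases arachidonic acid, was read by 1 dim probe set (class below 4) at -0.02 on each control, 0.23 under siRNA-1 and 0.02 under siRNA-2. Both knockdown values lay above the controls, but siRNA-2 only by 0.04, and the difference was 0.15 ± 0.12. PLA2G6, the calcium-independent enzyme of phospholipid remodelling, has 3 probe sets. The representative, 215938_s_at, read -0.17 and -0.09 on the controls, 0.55 under siRNA-1 and 0.09 under siRNA-2, a difference of 0.45 ± 0.18. Probe set 204691_x_at read -0.05 and 0.05 on the controls, 0.39 under siRNA-1 and -0.21 under siRNA-2. Probe set 210647_x_at read 0.03 and -0.12, then 0.34 and -0.03 in the same order. The siRNA-1 array was therefore the highest of the 4 in each PLA2G6 probe set, whereas the siRNA-2 array lay above both controls in 1 probe set, between them in 1 and below them in 1.

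None of the 4 receptor genes had a difference near that of ENPP2 in any probe set: over 9 probe sets the differences ran from -0.38 to 0.29. The knockdown arrays overlapped the controls in 4 of these probe sets, lay above them in 1 and below them in 4. With 1 probe set per gene, 23.6% of all genes lay above and 25.4% below. The share over all probe sets is not given here, so nothing is read from these counts. LPAR6 was the receptor with the brightest probe set and with the most even direction. Its probe set 218589_at, the only 1 of the 17 in the class of 8 or above, read 0.02 and 0.16 on the controls, -0.36 under siRNA-1 and -0.02 under siRNA-2, a difference of -0.28 ± 0.16. Its other probe set, 1557763_at, read 0.11 and 0.07 on the controls, -0.07 under siRNA-1 and -0.11 under siRNA-2, a difference of -0.18 ± 0.11. In both probe sets the knockdown arrays lay below the controls, with siRNA-1 the lower in the first and siRNA-2 in the second. LPAR6 lies within the span of RB1 in the RefSeq table, and RB1 has 2 probe sets. The brighter, 203132_at, read -0.03 and 0.03 on the controls, 0.15 under siRNA-1 and -0.06 under siRNA-2. The other, 211540_s_at, read 0.02 and 0.36 on the controls, -0.14 under siRNA-1 and -0.02 under siRNA-2. Both knockdown arrays lay below the controls there, with a difference of -0.27, close to that of LPAR6. Control 2 stood apart in that RB1 probe set, and siRNA-2 lay close to control 1.

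LPAR1, the most widely expressed LPA receptor, gave readings of opposite sign. Probe set 204036_at, in the class of 4 to 8, read -0.08 and -0.02 on the controls, 0.02 under siRNA-1 and 0.08 under siRNA-2, a difference of 0.10 ± 0.10. The dim probe set 204037_at read 0.51 and 0.08 on the controls, -0.08 under siRNA-1 and -0.09 under siRNA-2, a difference of -0.38 ± 0.17. Control 1 stood apart there, and control 2 lay nearer to the knockdown arrays than to control 1. The dim probe set 204038_s_at read 0.12 and -0.21 on the controls and 0.00 on each knockdown array, between the controls.

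LPAR2 differed between its probe sets on 1 array. Probe set 206722_s_at read 0.16 and -0.05 on the controls, 0.01 under siRNA-1 and -0.01 under siRNA-2, a difference of -0.06 ± 0.12. Probe set 206723_s_at, in the same class, read 0.15 and -0.15 on the controls, -0.22 under siRNA-1 and 0.80 under siRNA-2. The siRNA-2 array stood alone there, so the difference of 0.29 ± 0.36 rests on it. LPAR3 was dim in both probe sets. In 220816_at it read 0.04 and -0.21 on the controls, 0.08 under siRNA-1 and -0.04 under siRNA-2, and in 231192_at it read 0.02 on each control, -0.02 under siRNA-1 and -0.15 under siRNA-2. The signs of LPAR3 were opposite (0.10 ± 0.14 and -0.11 ± 0.11), each difference about as large as its error.

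Counted by gene, 5 of the 9 had both knockdown arrays above both controls (ENPP2, PLA2G1B, PLA2G4A, PLA2G6 and LPAR1), 1 had both below (LPAR6) and 3 overlapped. Over all genes 23.6% were higher and 25.4% lower by the same count, and since the genes were chosen with this comparison known, nothing is read from their share. The median difference over the 9 genes was 0.10 (0.16 under siRNA-1 and 0.04 under siRNA-2), against 0.00 over all genes. Among the 6 genes with several probe sets, 3 had the same sign in each (ENPP2, PLA2G6 and LPAR6). In limma's test over all genes, 1 gene was called at an adjusted p under 0.05 (0.00506% of genes), CD36, which is outside the group. That count was 404 after quantile normalization and stayed at 1 without _x_at and _s_at probe sets. It was 0 when probe sets were averaged, when dim genes were left out, under robust moderation and with the replicate number as a block. Leaving out an array leaves 1 array in its group, and the spread then comes from the other group alone. Counts from such fits are therefore not read.

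The difference between the siRNAs does not use the control means and was tested. It was fitted with limma in 3 groups, in which the spread comes from the 2 control arrays and the single array of each siRNA is taken to vary as they do. With 1 array per siRNA, its calls are differences between these arrays and have no replicate check. All 1435 of its calls were lost after quantile normalization. None of the 9 genes was called, against 7.26% of all genes (1435 of 19775; 843 higher and 592 lower with siRNA-2). ENPP2 differed between the siRNAs by 0.06 ± 0.08 (limma adjusted p = 0.668; unadjusted p = 0.532) and PLA2G1B by 0.22 ± 0.08 (adjusted p = 0.175; unadjusted p = 0.0676). After quantile normalization both differences turned direction, to -0.40 for ENPP2 and -0.37 for PLA2G1B. That step narrows the spread of the siRNA-2 array by construction, so this turn and the lost calls cannot be told apart from that scaling. PLA2G6 had the smallest p of the group, at -0.45 ± 0.09 (limma adjusted p = 0.079; unadjusted p = 0.0147), and was the only gene of the 9 with an unadjusted p under 0.05. It was called with the mean of its 3 probe sets (adjusted p = 0.0492) and when dim genes were left out (0.0479), and not after quantile normalization (0.26). LPAR6 differed by 0.34 ± 0.11 (limma adjusted p = 0.158) and PLA2G2A by -0.29 ± 0.10 (limma adjusted p = 0.159). The isolated LPAR2 reading in 206723_s_at amounted to 1.02 ± 0.19 between the siRNAs (limma adjusted p = 0.102 over all probe sets).

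**Figure D2:**
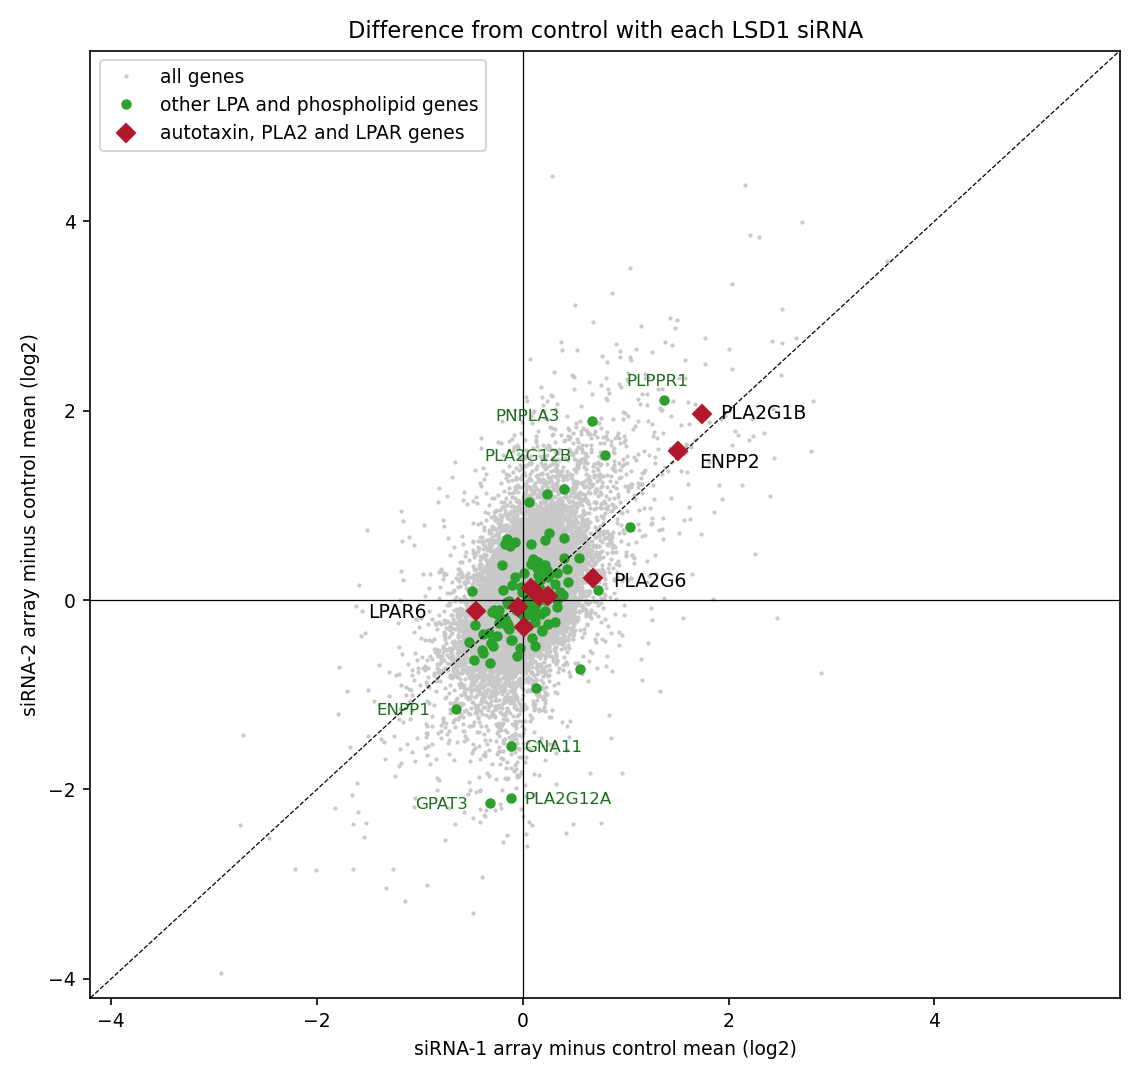
Difference from the control mean on the siRNA-1 array (horizontal axis, log2) and on the siRNA-2 array (vertical axis, log2), which share the same controls; grey dots are all 19775 genes, green circles the 119 other genes of LPA and phospholipid metabolism and red diamonds the 9 genes, and the dashed line marks equal differences. ENPP2 (1.51 and 1.57) and PLA2G1B (1.74 and 1.96) lie near the dashed line far from 0, PLA2G6 (0.68 and 0.23) lies below it, and PLA2G12A, GPAT3 and GNA11 lie low on the siRNA-2 axis alone.

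The genes most like ENPP2 over the 4 arrays were found by the Euclidean distance between array values, a description over 4 points with no test. They were KLHL13 (distance 0.06), EFCAB12 (0.12), LINC02381 (0.13), PFKM, the muscle phosphofructokinase (0.14), and MTTP, the lipid transfer protein of lipoprotein assembly (0.15). KLHL13 read -0.79 and -0.78 on the controls, 0.80 under siRNA-1 and 0.78 under siRNA-2, the closest profile to ENPP2 of all genes. Nearest to PLA2G1B were SLC7A7, a cationic amino acid transporter subunit, CHST9, a sulfotransferase, and CD74, the invariant chain of MHC class II, each at a distance of 0.17, followed by ADGRG1 (0.22) and TRIM22 (0.24). ENPP2 and PLA2G1B lay 0.34 apart.

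The other genes of LPA and phospholipid metabolism came as 13 lists with 119 measured genes. None passed limma's test of knockdown against control over all genes, 0 in either direction (smallest adjusted p = 0.19, for GDPD3). At an unadjusted p under 0.05 there were 10 higher and 9 lower, 16.0% of the 119 against 14.7% of all genes. Both knockdown arrays lay above the controls in 33 (27.7%) and below them in 29 (24.4%), near the 23.6% and 25.4% over all genes. The counts of the single lists below are to be read against the same shares. The median difference was 0.03 (0.09 with siRNA-1, -0.02 with siRNA-2).

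**Figure D3:**
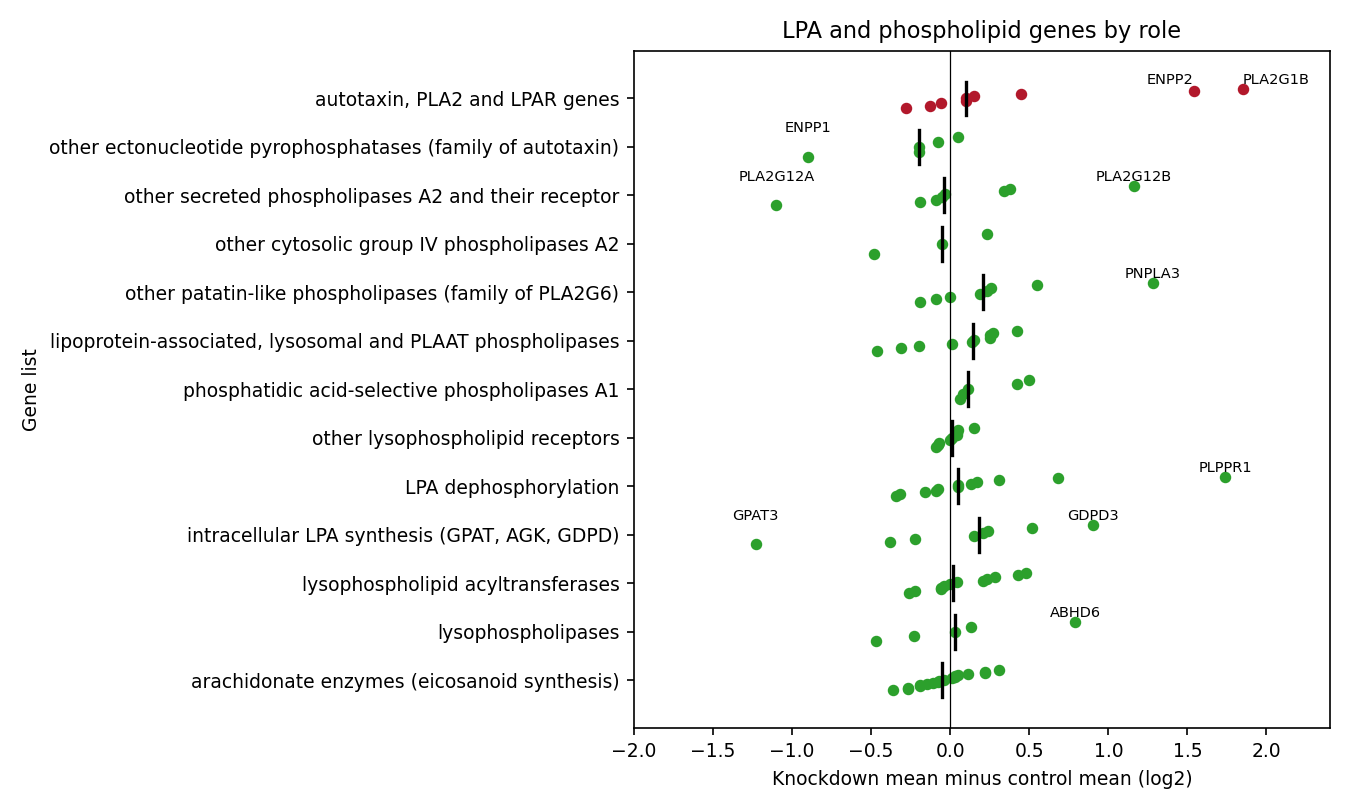
Knockdown mean minus control mean (log2, horizontal axis) for the 9 genes (red, top row) and for the lists of other LPA and phospholipid genes described in the text (green); each point is 1 gene, the black bar is the median of the list, and genes at 0.75 or more from 0 are named. ENPP2 and PLA2G1B lie far above the other 7 genes of their row, and PLPPR1 (1.74) lies farthest above 0 among the green points.

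The 5 measured ectonucleotide pyrophosphatases other than autotaxin had a median of -0.20, with 0 higher (23.6% of all genes) and 1 lower (25.4% of all genes) by that count. ENPP1, which makes pyrophosphate from extracellular ATP, read 0.35 and 0.32 on the controls, -0.32 under siRNA-1 and -0.82 under siRNA-2. Both knockdown arrays lay below both controls in each of its 4 probe sets, and the difference in the representative was -0.90 ± 0.20 (limma adjusted p = 0.231).

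Other secreted phospholipases A2 and their receptor (8 measured) had a median of -0.04, with 2 higher and 2 lower. PLA2G12B, an atypical secreted member without catalytic activity that is involved in lipoprotein secretion, read -0.37 and -0.50 on the controls, 0.37 under siRNA-1 and 1.10 under siRNA-2. Its difference was 1.16 ± 0.27 (limma adjusted p = 0.242), and its second probe set gave 1.30. Its relative PLA2G12A read 0.05 and 0.07 on the controls and -0.05 with siRNA-1, but -2.03 with siRNA-2. That siRNA-2 array stood apart in all 4 PLA2G12A probe sets, with -2.97 to -0.65 against the control mean, whereas siRNA-1 stayed between -0.11 and 0.12. The difference between the siRNAs was -1.99 ± 0.08 (limma adjusted p = 0.0413). PLA2G2E differed by -0.19 ± 0.10 (limma adjusted p = 0.452).

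Among intracellular phospholipases, the patatin-like relatives of PLA2G6 had a median of 0.21 over 8 genes, 4 higher and 1 lower (23.6% and 25.4% of all genes). PNPLA3, a lipase of hepatic lipid droplets, read -0.38 and -0.32 on the controls, 0.32 under siRNA-1 and 1.54 under siRNA-2, and PNPLA6, a lysophospholipase of the endoplasmic reticulum, read -0.01 and -0.11, then 0.01 and 0.98. Both were higher on the siRNA-2 array than on the siRNA-1 array, by 1.22 ± 0.08 (limma adjusted p = 0.0413) and 0.98 ± 0.10 (limma adjusted p = 0.0439). PNPLA4 had a difference of 0.26. The other group IV enzymes (3 measured) had a median of -0.05, with PLA2G4F at -0.48 ± 0.15. Lipoprotein-associated, lysosomal and PLAAT phospholipases (10 measured) had a median of 0.14, with PLAAT3 at 0.42, PAFAH1B3 at 0.27 and PAFAH2 at -0.46. The dim second probe set of PLAAT3 read -0.34. Phospholipases A1 that cut phosphatidic acid (5 measured) had a median of 0.11, 2 higher and 0 lower, and LIPH, which makes LPA at the cell surface, read 0.50 ± 0.15 (limma adjusted p = 0.298).

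Further lysophospholipid receptors had small differences. Over 9 genes the median was 0.01, with 1 higher and 1 lower. The differences were 0.01 ± 0.10 for LPAR4, 0.15 ± 0.12 for the sphingosine 1-phosphate receptor gene S1PR2 and -0.08 ± 0.10 for S1PR5. The dim S1PR5 probe sets 230464_at and 233743_x_at had opposite signs, at 0.13 and -0.27. LPAR5 was not analysed here.

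GNA11, which encodes a Gq family alpha subunit, read 0.05 and 0.06 on the controls, -0.05 under siRNA-1 and -1.49 under siRNA-2, a difference between the siRNAs of -1.43 ± 0.08 (limma adjusted p = 0.0413). All 6 GNA11 probe sets placed the siRNA-2 array between -1.64 and -1.34 against the control mean, and siRNA-1 between -0.12 and 0.10. GNAQ, which encodes another and is named after its values were seen, read -0.03 and 0.03 on the controls, 0.13 under siRNA-1 and -0.93 under siRNA-2, a difference between the siRNAs of -1.06 ± 0.08 (limma adjusted p = 0.0413).

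Enzymes that remove LPA or build it inside cells had differences of both signs. The dephosphorylation list (12 measured) had a median of 0.05, 3 higher and 3 lower. PLPPR1, a neuronal member of the lipid phosphatase family that is thought to lack phosphatase activity, read -0.66 and -0.75 on the controls, 0.66 under siRNA-1 and 1.40 under siRNA-2. Its difference of 1.74 ± 0.27 was the largest among the 119 genes (limma adjusted p = 0.193), and its dim second probe set gave -0.46. PLPP1, which degrades extracellular LPA, read -0.11 and -0.15 on the controls, 0.11 under siRNA-1 and 0.99 under siRNA-2, and the siRNAs differed by 0.88 ± 0.08 (limma adjusted p = 0.0425). PLPP3, another such enzyme named after its values were seen, read 0.01 and -0.01 on the controls, 0.56 under siRNA-1 and -0.73 under siRNA-2. The siRNAs lay on opposite sides of the controls in all 3 PLPP3 probe sets, and differed by -1.29 ± 0.08 in the representative (limma adjusted p = 0.0413). PLPPR2 differed by -0.34 in its representative, where control 1 stood apart (0.41, against 0.08 on control 2). Its second probe set, in the same class, gave -0.03.

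Intracellular LPA synthesis (8 measured) had a median of 0.18, 5 higher and 3 lower. GDPD3, an intracellular lysophospholipase D that also yields LPA, read -0.37 and -0.42 on the controls, 0.64 under siRNA-1 and 0.37 under siRNA-2, a difference of 0.90 ± 0.14 (limma adjusted p = 0.19). GDE1, of the same phosphodiesterase family, differed by 0.52 ± 0.13. GPAT3, which makes LPA from glycerol 3-phosphate, read 0.13 and 0.24 on the controls, -0.13 under siRNA-1 and -1.96 under siRNA-2, so that the siRNAs differed by -1.82 ± 0.10 (limma adjusted p = 0.0413).

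Acyltransferases that use lysophospholipids (12 measured) had a median of 0.02, with AGPAT2 at 0.48, LCLAT1 at 0.43 and LPCAT3 at 0.28. Lysophospholipases (5 measured) had a median of 0.03, with LYPLAL1 at -0.47, LYPLA2 at -0.23 and ABHD6 at 0.79. ABHD6 was higher on the siRNA-2 array than on the siRNA-1 array by 0.78 ± 0.08 (limma adjusted p = 0.0456), and 2 further ABHD6 probe sets had the same order. The dim ABHD6 probe set 221678_at had the opposite order, at 0.01 under siRNA-1 and -0.23 under siRNA-2. The second LYPLAL1 probe set gave 0.20. Enzymes of arachidonate metabolism (18 measured) act on the product of PLA2G4A or on compounds made from it. Their median was -0.05, 3 higher and 4 lower, with HPGD at -0.36, LTA4H at 0.31 and PTGES at -0.27.

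In all, 11 of the 119 genes (9.24%) were called between the siRNAs, 6 higher and 5 lower with siRNA-2, against 7.26% of all genes. Beside those named above, these were MBOAT7, an acyltransferase of lysophosphatidylinositol, and RHOB, both named after their values were seen. With the mean of probe sets neither was called (limma adjusted p = 0.109 and 0.128). After quantile normalization, which gives the centred values of each array the same spread, 0 genes of 19775 were called between the siRNAs (2996 at an unadjusted p under 0.05), and the 11 kept their direction with adjusted p from 0.243 to 0.345. Their differences were smaller there, for example -1.12 for PLA2G12A, -0.98 for GPAT3, 0.44 for PNPLA3, 0.43 for PLPP1 and 0.32 for ABHD6.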

How the data were processed

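Expression was measured on 4 single-colour arrays, 2 control and 2 LSD1 knockdown, grouped by sample title. The deposited log2 values were made by the authors with RMA, per the submitters' processing notes; the log base is taken as 2, which RMA gives, and the version and the set of arrays normalized jointly were not given. Every probe set has a median of 0 over the 4 arrays (largest deviation 5e-07), so centring by the authors is read from the values. Arrays give no depth; their number limits the precision.

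Probe sets were named by the platform annotation, with symbols updated through RefSeq gene identifiers (41097 with 1 gene, 1801 with several, 11777 unnamed; 62 control probe sets left out), giving 19775 genes. The brightness class rests on the step of single-precision numbers (22.0% of probe sets at 8 or above, 37.6% between 4 and 8, 40.4% lower), and stands in for the mean level in choosing 1 probe set per gene; some probe sets fall by chance into the next brighter class. Ties went to probe sets without a letter suffix, then to _a_at, _s_at and _x_at.

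The groups were compared by limma 3.58.1 under R 4.3.3 (two-sided, empirical Bayes, Benjamini-Hochberg over all genes, threshold 0.05). The siRNAs were compared in a limma model with 3 groups. Both models were also run on simulated data in which all arrays had the same spread for a gene. That simulation cannot show whether the siRNA arrays vary as the controls do. Errors are standard errors of the fits to the measured arrays. Those of further probe sets, and their p, come from a fit over all probe sets. No exact permutation test was run, because with 2 arrays per group its smallest two-sided p is 0.33.

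The genes and lists were chosen with earlier results of these data known. From each list the text names the 3 genes with the largest difference among those in a class of 4 or above whose arrays did not overlap, plus LPAR4 and LPAR5, and the 5 genes nearest in pattern to ENPP2 and PLA2G1B. Alternatives were the mean of probe sets, no _x_at or _s_at probe sets, no dim genes, quantile normalization, leaving out each array, the replicate number as a block and robust moderation. The summary of 1 list and its named genes, other than GNA11, is not reported here.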

Additional observations from a re-analysis of the deposited data

Results flagged for a closer look

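The genes below passed the limma test between the siRNA-2 and siRNA-1 arrays, with 1 array each and the spread taken from the 2 controls. None passed it after quantile normalization, where 0 of 19775 genes were called. With siRNA-2 relative to siRNA-1, PLA2G12A differed by -1.99, GPAT3 by -1.82, GNA11 by -1.43, PLPP3 by -1.29 and GNAQ by -1.06. In the other direction, PNPLA3 differed by 1.22, PNPLA6 by 0.98, PLPP1 by 0.88, ABHD6 by 0.78, MBOAT7 by 0.76 and RHOB by 0.69. A second bright MBOAT7 probe set, 211037_s_at, had the opposite order, at -0.64 for siRNA-1 against the control mean and -0.83 for the other siRNA. A second bright RHOB probe set, 1553962_s_at, had the same order with both arrays below the control mean, at -0.58 for siRNA-1 and -0.36 for the other siRNA. Without _x_at and _s_at probe sets PNPLA6, PLPP1, ABHD6 and RHOB were not called (limma adjusted p from 0.051 to 0.0576). GPAT3 and MBOAT7 have no value in that setting, so it cannot show whether their calls hold. No gene of the autotaxin, phospholipase A2 and LPA receptor group was among these.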

How the results depend on the processing

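Over 66 alternative values of the 9 genes, the sign changed in 6, all for PLA2G2A, LPAR1, LPAR2 and LPAR3; ENPP2 stayed between 1.40 and 1.70, PLA2G1B between 1.74 and 1.99, PLA2G6 between 0.23 and 0.68 and LPAR6 between -0.45 and -0.12. PLA2G1B, PLA2G2A, PLA2G6 and LPAR2 have no value without _x_at and _s_at probe sets. The median over the genes ran from 0.04 to 0.16. Of the 9 genes, 7 to 9 had knockdown values beyond the controls without single arrays, as did 80 to 102 of the 119 other genes. Such counts rise by construction since fewer arrays must be separated. The share over all genes in these settings is not given here, so nothing is read from these counts.

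The count of genes called between knockdown and control (1) was 0 with the mean of probe sets, without dim genes and with robust moderation, 404 after quantile normalization, and 0 to 4783 without single arrays, the highest without the siRNA-1 array. The titles' replicate numbers are not said to pair the arrays. Deviations of same-numbered arrays correlated at 0.03 across 19775 genes. This cannot show whether arrays were paired, since the knockdown arrays also differ in siRNA. With the number as a replicate block 0 genes were called (2203 at an unadjusted p under 0.05). Genes called between the siRNAs (1435) numbered 608 without _x_at and _s_at probe sets, 3477 without dim genes and 0 after quantile normalization; this test could not be fitted without single arrays. Quantile normalization narrows the spread of the siRNA-2 array by construction, and turned the difference between siRNAs for ENPP2 to -0.40 and for PLA2G1B to -0.37; other causes were not tested.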
